A study of Homo sapiens with 6 samples.

Results

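The genes of lipid and cholesterol metabolism were examined in SNU668, an established line of gastric signet-ring carcinoma cells, with and without knockdown of GPER1, which encodes the G protein-coupled estrogen receptor. In all, 3 libraries titled shControl, whose genotype label is WT, were set against 3 libraries titled shGPER, whose genotype label is GPER knockdown. From the listed genes, whose rule of selection is not given, members were chosen by annotation and not by their values. They are the protein-coding genes of the deposited table with a Gene Ontology description naming lipid, fatty acid or cholesterol metabolism, synthesis or lipid breakdown. Solute carriers, PDK4 and genes annotated to the mitochondrial matrix or inner membrane were left out. Of 1841 protein-coding genes listed, 51 matched the terms, 7 were excluded and 44 remained. Annotation terms match as part of longer names, so phospholipid, sphingolipid and regulatory terms count, and some members (QKI, PAM and FMC1 among them) are known mainly for other functions.

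Cells make cholesterol from acetyl-CoA through a long series of enzymes in the endoplasmic reticulum. When sterols run low, the SREBP transcription factors are cut free from the membrane and switch on the genes of this series and of fatty acid synthesis. Fatty acids are activated to acyl-CoA, desaturated, elongated and built into phospholipids, and phospholipases release them again together with signalling lipids such as diacylglycerol and phosphatidic acid. Peroxisomes break down branched and very long fatty acids.

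GPER1 itself had 10.41 to 11.04 TPM in shControl against 1.83, 2.41 and 2.47 TPM in shGPER, so that 20.7% of the control mean was left (log2 fold change -1.87, SE 0.11; limma, adjusted p = 1.14e-06). The exact two-sided permutation test gave p = 0.1, the smallest that 3 libraries against 3 allow. TPM are the share of a gene's transcripts among all transcripts of a library, corrected for length and scaled to a fixed total. The listed genes make up 4.66 to 6.42% of that total, and read depth is not known. How many hairpins were used, whether the controls carried one and whether the cultures were separate is not in the labels. The p-values therefore measure the spread between these libraries, which may be technical, and any effect of a hairpin on other transcripts cannot be told apart from loss of GPER1. Of 12 gastric epithelial and signet-ring markers 2 were listed, CDH1 and TFF1, with a summed level of 5.08 to 6.67 TPM in shControl and 0.68 to 3.02 TPM in shGPER. TFF1 fell (log2 fold change -1.26; limma, adjusted p = 0.0112), and CDH1 was under the level for testing. The other 10 were not analysed here. Of 6 fibroblast markers 4 were listed, with a summed level of 7.02 to 9.91 TPM in shControl and 31.9 to 33.2 TPM in shGPER. COL1A1 rose from 2.83 to 29.4 TPM (means), while DCN and LUM fell. Of 5 endothelial markers CDH5 and ERG were listed, summing to 2.09 to 2.52 and 7.52 to 8.71 TPM, and of 6 leukocyte markers none. Their part in the results was not tested.

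Most of the listed genes separate the groups, but they are a partial set, and how they were selected is not given. If they were selected for a difference between these groups, the calls, adjusted p-values and shares given here follow partly from that selection. Whether they were was not tested, and the shares do not describe genes outside the list. Of 1651 genes with at least 1 TPM in at least 3 libraries, 98.4% were called (limma on log2(TPM + 1), adjusted p under 0.05), 47.8% higher and 50.6% lower in shGPER. Their median log2 fold change was -0.49. Of the 44 members 35 passed this filter, and all 35 were called, 19 higher and 16 lower. A share of 100% against 98.4% is not a result about these genes, and only their directions, sizes and levels are described below. The filter fixed the direction of 2 tested members, CYP4F2 and PLCB2, which reached 1 TPM in one group alone. Without these 2, 18 rose and 15 fell. PLTP, UGT1A7, PAM and PLA2G4C, still among the 18, were mostly under 1 TPM in shControl. They too passed the filter only through their shGPER libraries, so their rises are limited in the same way. No overlap between the groups was seen for the 35 tested members, against 97.4% of all tested genes, nor for 41 of all 44 members, against 95.3% of all listed genes.

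Changes ranged from -2.22 to 2.27 on the log2(TPM + 1) scale, the scale of every log2 fold change given here, which understates changes of low genes. With a pseudocount of 0.1 in place of 1 the change was -2.52 in place of -1.11 for CYP4F2, 2.97 in place of 1.40 for PLCB2, 0.99 for PLA2G4C, 1.15 for PAM, 1.20 for UGT1A7 and 1.34 for PLTP. At least 2-fold on that scale, 11 of the 35 members rose (31.4%, against 32.0% of all tested genes) and 10 fell (28.6%, against 24.2%). After median centring 15 rose and 6 fell by that much (39.6 and 16.3% of all tested genes), and with the GC trend described below removed 5 and 7 (11.7 and 12.1%). None lay within 0.5 of 0, as was the case for all but 2.73% of tested genes. The median of the members, 0.65, lies at the edge of the empty stretch between CERK at -0.75 and PLA2G4C at 0.63, and it was -0.75 when 5 TPM was required. The members with the highest control levels mostly fell, as did most tested genes at such levels. That split uses the shControl values alone, which favours falls. Of 11 with an shControl mean of at least 20 TPM, 9 fell and 2 rose, PLCD3 and TRIB3, and among all 445 tested genes at that level 79.1% fell and 20.9% rose. In bulk RNA, fewer cells of a kind and less RNA per cell cannot be told apart.

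**Figure D1:**
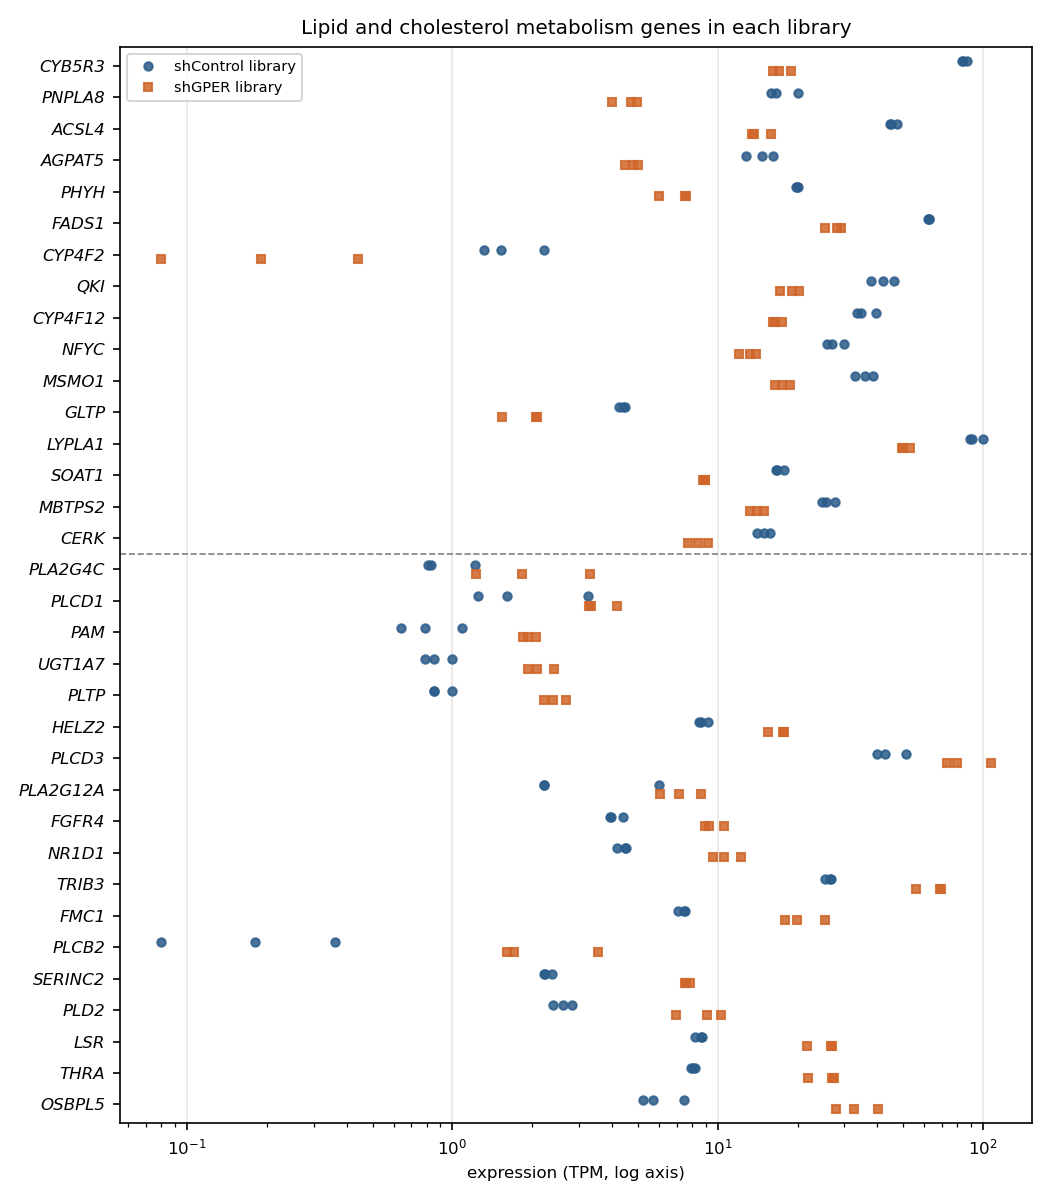
Expression of the tested genes described here in each library, in TPM on a log axis, ordered by log2 fold change; circles are the 3 shControl and squares the 3 shGPER libraries. The dashed line parts the genes that fell from those that rose, and within each gene the groups lie apart, narrowly so for PLA2G4C, PLCD1 and PLA2G12A.

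Direction went with base composition across the table, and this touches the members as well. The median GC content of transcripts was 59.8% in the 19 members that rose and 45.5% in the 16 that fell, against 59.6% and 44.3% over all tested genes. Across the 35 members, which share the same 6 libraries, GC content and log2 fold change had a Pearson r of 0.59 and a Spearman rho of 0.57 (across genes, which are not independent). When each library's trend with GC content was removed, 25 of the 35 kept their call and direction, against 59.3% of the 1626 tested genes with a GC value. MSMO1, LYPLA1, SOAT1 and MBTPS2 among those that fell, and PLTP, FGFR4, PLCD1, PLCD3, PLA2G4C and HELZ2 among those that rose, did not. Nearly all genes behind the estimated trend differ between the groups, so what is left is a gene's distance from other changed genes with similar base content.

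**Figure D2:**
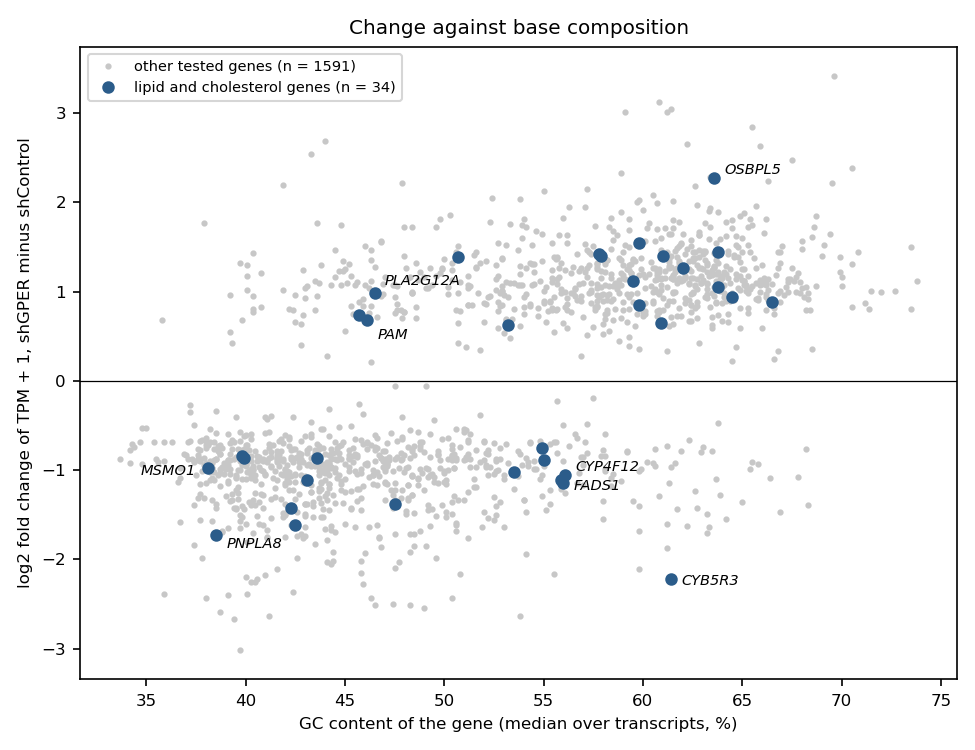
Log2 fold change of TPM + 1 (shGPER minus shControl) against the GC content of each gene, the median over its annotated transcripts in percent; large points are the members described here and small points the other tested genes. CYB5R3, FADS1 and CYP4F12 fell at GC contents of 61.4, 56.0 and 56.1%, and PLA2G12A and PAM rose at 46.5 and 46.1%.

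Members on the far side of this pattern were 7 that fell with at least 50% GC (NFYC, CERK, GLTP, CYP4F2, FADS1, CYP4F12 and CYB5R3) and 3 that rose with under 50% (UGT1A7, PAM and PLA2G12A). Over all tested genes 76.3% of those with at least 50% GC rose and 83.5% of those under 50% fell. Taking away the trend moves genes on the far side away from 0 by construction, as for CYB5R3 at -3.16, FADS1 at -1.65 and UGT1A7 at 1.44. All members on the far side are thus among the 25 that kept their call and direction.

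**Figure D3:**
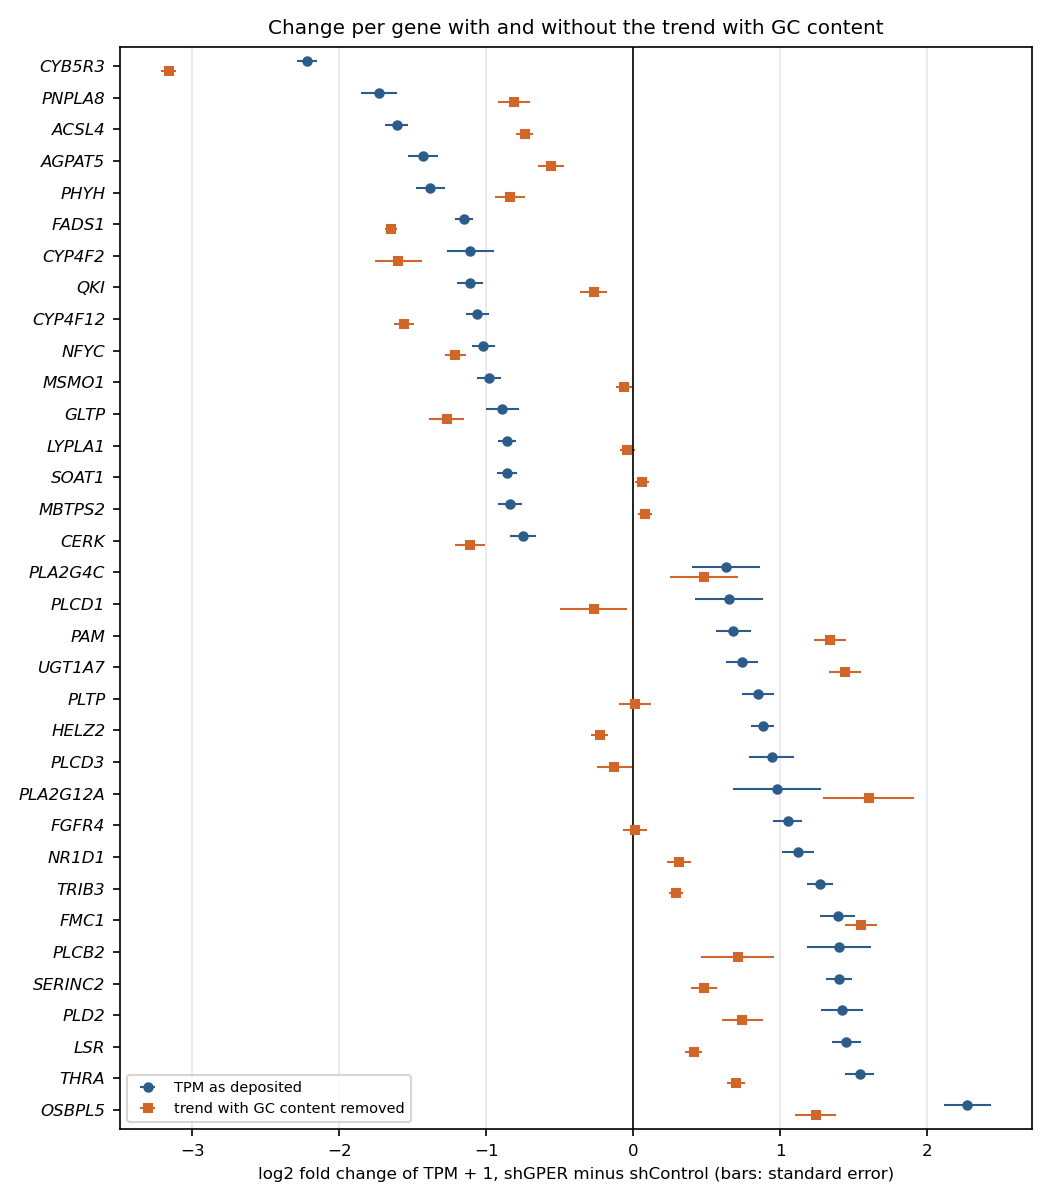
Log2 fold change with its standard error for each tested member described here, from TPM as deposited (circles) and with each library's trend with GC content removed (squares). MBTPS2, SOAT1, HELZ2, PLCD3 and PLCD1 cross the zero line, and CYB5R3 and FADS1 move further below it.

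Promoter windows are shown for 4 members on which the account of sterol and fatty acid genes turns: the largest fall on the log2(TPM + 1) scale (CYB5R3), the desaturase FADS1, the sterol enzyme MSMO1 and the largest rise on that scale (OSBPL5). RefSeq (GRCh38.p14) gave windows of 300 bases, 250 before to 50 after a start, for 33 of the 44 members, 58 windows in all. The windows lie at chr22:42644577-42644876, minus strand, for CYB5R3, chr11:61816954-61817253, minus strand, for FADS1, chr4:165327419-165327718, plus strand, for MSMO1, and chr11:3165261-3165560, minus strand, for OSBPL5. CYB5R3 has 2 other windows, and the one shown was chosen after the search because it holds the E-box. It lies inside the annotated gene, while the window at the annotated 5′ end holds none of the letters searched and the third holds CCAAT once. The windows of FADS1 and OSBPL5 also lie inside their annotated genes, away from the annotated 5′ end. Each window shown is written 5′ to 3′ on the gene's strand. Capitals mark matches to the letters searched on both strands, CACGTG in CYB5R3, TGACGTCA in FADS1 and CCAAT or its reverse complement in MSMO1.
CYB5R3: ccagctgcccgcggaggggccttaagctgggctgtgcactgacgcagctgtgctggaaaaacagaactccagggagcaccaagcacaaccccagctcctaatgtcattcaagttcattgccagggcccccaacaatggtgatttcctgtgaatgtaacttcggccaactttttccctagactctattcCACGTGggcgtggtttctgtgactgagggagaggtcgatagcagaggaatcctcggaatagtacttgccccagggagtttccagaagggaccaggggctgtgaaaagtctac
FADS1: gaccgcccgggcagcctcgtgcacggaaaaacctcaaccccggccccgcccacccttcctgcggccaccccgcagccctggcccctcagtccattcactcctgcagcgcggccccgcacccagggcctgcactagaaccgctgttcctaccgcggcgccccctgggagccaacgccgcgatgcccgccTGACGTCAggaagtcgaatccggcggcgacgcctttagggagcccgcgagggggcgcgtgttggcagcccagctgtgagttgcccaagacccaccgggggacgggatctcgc
MSMO1: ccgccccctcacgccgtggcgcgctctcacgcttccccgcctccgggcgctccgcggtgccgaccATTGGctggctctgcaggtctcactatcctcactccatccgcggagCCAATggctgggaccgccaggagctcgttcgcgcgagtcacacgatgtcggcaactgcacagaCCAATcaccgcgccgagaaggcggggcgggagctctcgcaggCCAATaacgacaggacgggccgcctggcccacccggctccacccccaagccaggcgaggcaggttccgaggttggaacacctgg
OSBPL5: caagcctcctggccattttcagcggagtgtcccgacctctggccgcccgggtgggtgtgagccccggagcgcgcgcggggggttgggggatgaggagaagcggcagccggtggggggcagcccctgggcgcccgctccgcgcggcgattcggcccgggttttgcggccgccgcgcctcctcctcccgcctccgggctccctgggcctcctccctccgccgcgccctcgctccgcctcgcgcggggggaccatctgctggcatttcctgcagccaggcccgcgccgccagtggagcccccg

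Letters of 5 motifs were searched. The sterol regulatory element TCACNCCAC, bound by SREBP, was in windows of 2 members, PAM and the untested ACSL6, and in 1.13% of all 35116 windows. It was in no window of the 11 matched members that fell. The E-box CACGTG was in 4 of the 58 member windows (6.90%), against 7.26% of all windows, and the cyclic AMP response element TGACGTCA in that of FADS1 alone, against 1.85%. The direct repeat bound by PPAR and RXR was in none and in 0.0228% of all windows. CCAAT, the site of NF-Y, was in 9 of 16 windows of members that fell (56.2%) and in 7 of 26 of those that rose (26.9%), against 34.6% of all windows. Windows of the same gene are not separate, and every window of NFYC held CCAAT. By gene, CCAAT was found for 7 of 11 that fell and 5 of 15 that rose, and for 10846 of 27305 genes with windows. MSMO1 held it 4 times, as at least that often in 0.991% of all windows. CCAAT was added to the search after the values were seen, because the NF-Y subunit NFYC is a member. No matches of different motifs overlapped in the members' windows, a match describes a window and not a bound site, and the groups of windows were not tested against each other.

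MSMO1 (ENSG00000052802; chromosome 4, 165327623 to 165343160, plus strand, GRCh38), the methylsterol monooxygenase that removes methyl groups from sterol intermediates, is the 1 listed gene of 24 in cholesterol synthesis. It had 32.88, 35.77 and 38.39 TPM in shControl and 18.66, 17.49 and 16.44 TPM in shGPER. Every shGPER library lay well below the lowest control, and the groups did not overlap. The gene fell to 49.1% of the control mean (log2 fold change -0.98, SE 0.08; limma, adjusted p = 5.78e-06). With the GC trend removed the change was -0.06 and the call was lost (adjusted p = 0.409).

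CYB5R3 (ENSG00000100243; chromosome 22, 42617840 to 42649568, minus strand), the NADH-cytochrome b5 reductase that passes electrons to sterol and fatty acid desaturating enzymes, had the largest fall of the tested members on the log2(TPM + 1) scale. By TPM the low gene CYP4F2 fell further, to 14.1% of its control mean. CYB5R3 went from 87.15, 84.21 and 83.02 TPM to 16.21, 17.09 and 18.95 TPM. The control libraries differed by a few TPM and all 3 knockdown libraries were far below them. The level left was 20.5% of the control mean, next to 20.7% for GPER1 (log2 fold change -2.22, SE 0.07; limma, adjusted p = 1.1e-07). Its transcripts have a GC content of 61.4%, and with the GC trend removed the change was -3.16.

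Genes around SREBP and cholesterol storage fell as well. MBTPS2, the intramembrane protease that releases SREBP, went from 24.79 to 27.72 TPM in shControl to 13.20 to 14.93 TPM in shGPER. SOAT1, the acyltransferase that esterifies cholesterol for storage, went from 16.54 to 17.75 TPM to 8.83 to 8.97 TPM. NFYC, a subunit of the NF-Y factor that binds CCAAT next to SREBP sites in sterol gene promoters, went from 25.79 to 29.89 TPM to 12.04 to 13.90 TPM. The log2 fold changes were -0.84 for MBTPS2, -0.86 for SOAT1 and -1.02 for NFYC (limma, adjusted p = 1.07e-05, 6.3e-06 and 6.14e-06). With the GC trend removed NFYC stayed lower at -1.21, whereas MBTPS2 and SOAT1 stood at 0.08 and 0.06 and were not called. NFYC lies on the far side of the GC pattern, so the removal moved it away from 0 by construction. Of the words of 31 nt in MBTPS2 transcripts 12.1% are shared with YY2, a gene within it, so its value is uncertain to that extent.

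OSBPL5 (ENSG00000021762; chromosome 11, 3087116 to 3166739, minus strand), the oxysterol-binding-related protein ORP5, which exchanges lipids where the endoplasmic reticulum touches the plasma membrane, rose most of the tested members on the log2(TPM + 1) scale. By TPM the low gene PLCB2 rose further, 11-fold. OSBPL5 was at 5.70, 7.44 and 5.24 TPM in shControl and at 27.85, 40.20 and 32.58 TPM in shGPER. Library 2 was the highest of both groups, and the lowest shGPER value was still far above the highest control. The mean rose 5.47-fold (log2 fold change 2.27, SE 0.16; limma, adjusted p = 2.21e-06), and with the GC trend removed the change was 1.24.

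LSR, a lipoprotein receptor also found at tricellular junctions, rose from 8.18, 8.76 and 8.66 TPM to 21.79, 26.99 and 26.73 TPM (log2 fold change 1.45; limma, adjusted p = 1.95e-06; 0.41 with the GC trend removed). PLTP, the phospholipid transfer protein, went from 0.85 to 1.00 TPM to 2.22 to 2.69 TPM, a low level at which the call was lost with the GC trend removed (0.01). GLTP, which carries glycolipids between membranes, went the other way, from 4.25 to 4.46 TPM to 1.54 to 2.09 TPM (-0.89, and -1.27 with the GC trend removed).

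Among fatty acid enzymes FADS1, ACSL4, LYPLA1, PHYH, CYP4F2 and CYP4F12 fell. FADS1 (ENSG00000149485; chromosome 11, 61799625 to 61829318, minus strand), the desaturase of the path to arachidonic acid, was at 62.74, 62.65 and 61.95 TPM in shControl and at 25.47, 28.08 and 29.12 TPM in shGPER. The control libraries agreed within 1 TPM and the groups lay far apart. The level left was 44.1% (log2 fold change -1.15, SE 0.06; limma, adjusted p = 9.16e-07). Exons of FADS2 on the opposite strand cover 4.79% of the exon bases of FADS1, and the sources used here do not say whether counting took strand into account. With the GC trend removed the change was -1.65.

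ACSL4 (chromosome X, 109624244 to 109733403, minus strand), the acyl-CoA synthetase that prefers arachidonic acid and sets the sensitivity of cells to ferroptosis, went from 44.74, 45.13 and 47.59 TPM to 13.49, 15.91 and 13.75 TPM. That is 31.4% of the control mean (log2 fold change -1.61, SE 0.08; limma, adjusted p = 4.4e-07), and -0.74 with the GC trend removed. LYPLA1, a thioesterase of lysophospholipids and acylated proteins, had the highest mean TPM of the members in shControl and went from 89.00 to 100.26 TPM to 49.64 to 53.04 TPM. Its log2 fold change of -0.86 became -0.04 with the GC trend removed and was not called (adjusted p = 0.478). A relative of ACSL4, ACSL6, an acyl-CoA synthetase known from brain, was at 0.33 to 0.63 and 0.94 to 1.64 TPM and was not tested.

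Of the genes of fatty acid oxidation outside the mitochondrial matrix PHYH, CYP4F12 and CYP4F2 fell. The 6 tested genes of the list, members or not, went both ways, with 4 called lower and 2 higher. Of all tested genes 50.6% were called lower and 47.8% higher. CPT1C, outside the members, rose from 0.763 to 6.15 TPM (means). PHYH, the peroxisomal hydroxylase of phytanoyl-CoA, fell from 20.07, 19.90 and 19.78 TPM to 7.62, 6.03 and 7.54 TPM (log2 fold change -1.38; limma, adjusted p = 2.52e-06). CYP4F12, a cytochrome P450 of the family that hydroxylates the end of fatty acid chains, fell from 39.61, 34.54 and 33.57 TPM to 16.22, 17.41 and 16.47 TPM. CYP4F2 of the same family went from 1.31 to 2.21 TPM to 0.08 to 0.44 TPM, and its direction was fixed by the filter. CYP4F2 shares 23.3% of its 31-nt words with CYP4F3, so its reads cannot be fully told apart from those of its neighbour.

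Of the phospholipid and sphingolipid enzymes outside the phospholipase list, AGPAT5, PNPLA8 and CERK fell and SERINC2 rose. AGPAT5, an acyltransferase that makes phosphatidic acid, went from 14.69, 12.80 and 16.16 TPM to 4.99, 4.49 and 4.80 TPM (log2 fold change -1.43; limma, adjusted p = 2.98e-06). PNPLA8, a calcium-independent phospholipase of mitochondria and peroxisomes, had means of 17.5 ± 2.22 TPM in shControl and 4.56 ± 0.507 TPM in shGPER (SD, n = 3), a change of -1.73 (limma, adjusted p = 2.01e-06), with all shGPER libraries below the controls. CERK, the ceramide kinase, went from 14.02 to 15.68 TPM to 7.72 to 9.16 TPM (-0.75). These 3 stayed lower with the GC trend removed, at -0.56, -0.81 and -1.11. CERK lies on the far side of the GC pattern and moved away from 0 by construction. SERINC2, a serine incorporator annotated to sphingolipid metabolism, went the other way, from 2.22 to 2.38 TPM to 7.54 to 7.88 TPM (1.40, and 0.48 with the GC trend removed).

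The 6 members of the list of phospholipases and phospholipid remodelling, from which 6 of 55 genes were listed, were called higher. PNPLA8, which fell, is also a phospholipase and stands in the list of lipases. Over all tested genes 47.8% were called higher, and no test was made of the list. Their summed level was 50.9 to 58.7 TPM in shControl and 97.2 to 132 TPM in shGPER, most of it from PLCD3. PLCD3 (chromosome 17, 45108967 to 45133354, minus strand), a phospholipase C that splits phosphatidylinositol bisphosphate, was at 51.08, 39.73 and 42.56 TPM in shControl and at 73.46, 79.58 and 106.78 TPM in shGPER. The shGPER libraries spread widely, with library 3 the highest, and none fell into the control range. The log2 fold change was 0.94 (SE 0.15; limma, adjusted p = 0.000275), but -0.13 with the GC trend removed (adjusted p = 0.393).

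PLD2 (chromosome 17, 4807096 to 4823434, plus strand), a phospholipase D that makes phosphatidic acid as a signal, rose from 2.83, 2.39 and 2.61 TPM to 9.08, 6.99 and 10.25 TPM. The mean was 3.36-fold higher (log2 fold change 1.42, SE 0.14; limma, adjusted p = 1.69e-05), and the gene stayed higher at 0.74 with the GC trend removed. PLA2G12A, a secreted phospholipase, was at 2.22, 6.03 and 2.22 TPM in shControl and at 6.04, 7.15 and 8.65 TPM in shGPER. Library 2 of shControl thus nearly reached the lowest shGPER library, and PLA2G12A shares 15.1% of its 31-nt words with the overlapping gene AC126283.2. Its log2 fold change was 0.98 (SE 0.30; limma, adjusted p = 0.0114), and 1.60 with the GC trend removed.

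The other 3 phospholipases of this list were low. PLCD1 was at 1.25, 1.61 and 3.24 TPM in shControl and at 3.26, 4.17 and 3.34 TPM in shGPER, so that the highest control library and the lowest knockdown library were next to each other. PLA2G4C, a cytosolic phospholipase, was at 1.22, 0.83 and 0.81 TPM and at 1.83, 3.31 and 1.23 TPM, again with adjoining groups. PLCB2, the phospholipase C downstream of Gq-coupled receptors, was at 0.08, 0.36 and 0.18 TPM and at 3.54, 1.71 and 1.60 TPM, and the filter fixed its direction. The log2 fold changes of PLCD1 and PLA2G4C were 0.65 and 0.63 (limma, adjusted p = 0.022 and 0.0261). PLCD1 lost its call without shControl library 1 or 2 or shGPER library 2 (adjusted p = 0.0732, 0.0687 and 0.0711), and PLA2G4C without shControl library 2 or 3 or shGPER library 2 (0.07, 0.0747 and 0.0588). With the GC trend removed neither was called, and PLCD1 stood at -0.27. Of the 6 phospholipases of the list, PLD2, PLA2G12A and PLCB2 kept their call with the GC trend removed. That of PLCB2 was lost when a term for the replicate number was added (adjusted p = 0.071). PLA2G12A lies on the far side of the GC pattern, so removal of the trend moved it away from 0 by construction.

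**Figure D4:**
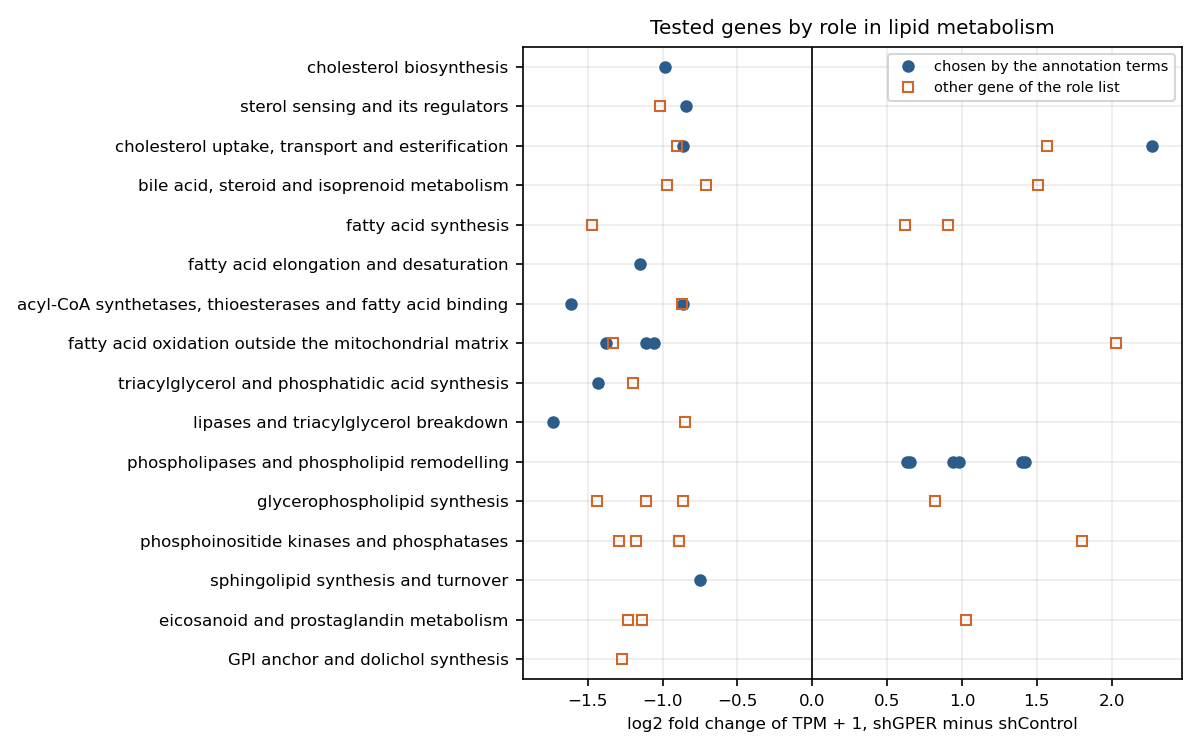
Log2 fold change of TPM + 1 (shGPER minus shControl) of the tested genes described here in 16 lists of roles in lipid metabolism; filled circles are members and open squares other genes of the lists. The 6 phospholipase genes lie right of zero, and the tested genes of acyl-CoA synthesis, phosphatidic acid synthesis and lipases left of it.

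Among receptors and other regulators THRA, NR1D1, TRIB3, FGFR4 and HELZ2 rose. THRA (chromosome 17, 40058290 to 40093867, plus strand), the thyroid hormone receptor alpha, was at 7.93, 8.08 and 8.19 TPM in shControl and at 21.94, 26.88 and 27.50 TPM in shGPER. NR1D1 (chromosome 17, 40092787 to 40100725, minus strand), the heme-binding repressor REV-ERB alpha of the circadian clock, was at 4.46, 4.18 and 4.51 TPM and at 9.56, 10.54 and 12.25 TPM. The groups of both genes lay clearly apart, with log2 fold changes of 1.54 and 1.12 (limma, adjusted p = 1.46e-06 and 1.39e-05) and 0.70 and 0.31 with the GC trend removed. The 2 genes run towards each other on opposite strands and overlap, with 9.49% of the exon bases of NR1D1 and 3.78% of those of THRA covered by the other. Their reads in that stretch can be told apart only if strand was used in counting.

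TRIB3, a pseudokinase that binds AKT and favours the breakdown of acetyl-CoA carboxylase, rose from 25.42 to 26.68 TPM to 56.09 to 69.46 TPM. FGFR4, the FGF receptor that restrains bile acid synthesis in liver, rose from 3.93 to 4.38 TPM to 8.94 to 10.55 TPM. HELZ2, a helicase that assists PPAR receptors, rose from 8.48 to 9.19 TPM to 15.45 to 17.80 TPM. For all 3 the groups lay apart, with log2 fold changes of 1.27, 1.05 and 0.88. With the GC trend removed TRIB3 stayed higher at 0.29, FGFR4 was not called (0.01; adjusted p = 0.926) and HELZ2 was called lower (-0.23; adjusted p = 0.0155). MLXIPL, the carbohydrate response factor ChREBP, was at 0.14 to 0.25 TPM in shControl and at 0.76 to 1.21 TPM in shGPER, and was not tested.

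The 4 remaining tested members act mainly elsewhere. QKI, an RNA-binding protein of splicing, fell from 37.74 to 46.23 TPM to 17.24 to 20.21 TPM (log2 fold change -1.11, and -0.27 with the GC trend removed). FMC1, an assembly factor of ATP synthase, rose from 7.08 to 7.55 TPM to 17.96 to 25.31 TPM (1.39), and shares 16.5% of its 31-nt words with the readthrough gene C7orf55-LUC7L2. PAM, the peptide-amidating enzyme, which also acts on fatty acylglycines, rose from 0.64 to 1.09 TPM to 1.84 to 2.07 TPM (0.68, and 1.34 with the GC trend removed). UGT1A7, a glucuronosyltransferase, rose from 0.79 to 1.00 TPM to 1.93 to 2.42 TPM (0.74) and shares 39.6% of its 31-nt words with UGT1A6, so it is uncertain which gene of that family the value reflects.

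The 9 untested members lay between 0 and 1.64 TPM. Of these, 7 had a higher and 2 a lower mean in shGPER. The groups lay apart for 6 of them. They did so for 95.3% of all listed genes, a share that includes the tested genes, of which 97.4% lay apart. Among the 6 were ACSL6, MLXIPL, PDE3A and SULT2B1 with higher values. TNFAIP8L3 was lower, going from 0.66 to 0.86 TPM to 0.09 to 0.23 TPM. SULT2B1, the sulfotransferase of cholesterol, was listed at 0 in shControl libraries 1 and 3. APOL4, FAR2 and TTC39B overlapped between the groups.

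Other genes of lipid metabolism, from 16 role lists with 583 genes, were listed in 32 cases beyond the members, and 27 of these were tested. Of these 8 rose and 19 fell, where 47.8% of all tested genes rose and 50.6% fell, and no test was made of the difference. All that rose had a GC content of at least 50%, and most that fell had less. Their changes are given as deposited, without removal of the GC trend. In glycerophospholipid synthesis PTDSS1, the phosphatidylserine synthase, fell from 26.7 to 9.24 TPM, CEPT1 from 22.9 to 10.1 TPM and SELENOI from 9.57 to 4.84 TPM (means), while ETNK2 rose from 1.20 to 2.91 TPM. Next to AGPAT5, the acyltransferase gene GPAT3 fell from 12.7 to 4.98 TPM. Of the 20 genes in the list of fatty acid synthesis, which also holds genes that act against it, 3 were listed. PRKAA1, the AMPK catalytic subunit that inhibits synthesis, fell from 35.3 to 12.3 TPM. ACSS1 and MLYCD rose, from 2.14 to 4.94 and from 0.87 to 1.85 TPM. These directions do not say which way synthesis itself went. Next to CYP4F2 and CYP4F12, CYP4F3 fell from 18.1 to 6.56 TPM. FABP4, a fatty acid carrier better known from fat cells, fell from 112 to 61.1 TPM. Of 8 fat cell markers FABP4 and PLIN4, at 0.09 to 0.40 TPM, were listed, and none of 7 liver cell markers was. The part of other cell types in these values was not tested.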

How the data were processed

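For 3 shControl and 3 shGPER libraries the authors deposited TPM of each gene. Libraries were stranded mRNA preparations, per the labels' protocols. Tools listed without version or order, per the submitters' processing notes, are RSEM, HISAT2 and fastp, with build hg38; the annotation and strand setting are not given in the sources used here. TPM keep no read counts, so no count model, counting interval or detection limit was used, and the depth of each library is unknown.

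All 2128 listed genes were read, and limma 3.58.1 (R 4.3.3) compared shGPER with shControl on log2(TPM + 1), with an intensity trend and no covariate, for the 1651 genes with at least 1 TPM in at least 3 libraries. Two-sided p-values received a Benjamini-Hochberg adjustment over all of them (threshold 0.05). The fit was also run on simulated data in which most genes were unchanged. That setting is unlike this table, so it lends no support to the shares called here. GC content, positions and words of 31 nt shared with other genes came from GENCODE 29 (GRCh38); 2078 genes matched. Promoter windows came from RefSeq. Tables were handled in Python 3.11.15 with pandas 2.3.3.

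Counts over the members include 2 genes whose own results are not reported here. Members, role lists and alternatives were chosen with earlier results of these data known. Genes are named by a rule: GPER1, up to 15 called members in each direction with at least 5 TPM in a group, up to 6 genes with the highest mean TPM in each role list, and uncalled members; GLTP, PAM, PLTP, UGT1A7 and untested members are named to account for the members. Alternatives were pseudocounts of 0.1 and 0.5, no filter, 5 TPM, median centring, no intensity trend, a replicate block, removal of the trend with GC content (natural spline with 3 degrees of freedom), whole-term matching, and leaving out each library.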

Additional observations from a re-analysis of the deposited data

How the results depend on the processing

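Each of the 35 tested members kept its direction and call with both pseudocounts, no filter, median centring, no intensity trend and a replicate block, as did all 27 that passed a filter of 5 TPM. In these fits 96.0 to 99.6% of all genes were called, so this does not set the members apart. Same-numbered libraries showed no shared deviation, with correlations of 0.0327, -0.0872 and 0.0127, which cannot decide whether the cultures were paired. The replicate block left 19 members higher and 16 lower, where 47.8 and 50.4% of all tested genes were. Leaving out 1 library gave 17 to 19 higher and 16 lower, 10 to 13 higher and 8 to 10 lower by at least 2-fold, a median of 0.56 to 0.78, and -1.93 to -1.78 for GPER1. Of all tested genes 47.4 to 47.6% were then higher and 49.8 to 50.5% lower. By at least 2-fold 29.5 to 35.4% were higher and 23.6 to 25.7% lower. With the GC trend removed 13 rose and 13 fell, where 31.5 and 31.1% of all genes did (12 and 13, with 30.3 and 30.6%, with the replicate block as well), 5 were higher and 7 lower by at least 2-fold, and the median was 0.01, with the block too. Signs then turned for MBTPS2 (0.08), SOAT1 (0.06), HELZ2 (-0.23), PLCD3 (-0.13) and PLCD1 (-0.27), with the same values under the block. The cause was not tested. The median was 0.94 and 0.79 at pseudocounts of 0.1 and 0.5, 0.57 without a filter, 0.80 after median centring, which moves the median of all genes from -0.49 to -0.33, and -0.75 at 5 TPM. By at least 2-fold, 15 members were higher and 6 lower after median centring, and 15 and 12 at a pseudocount of 0.1 (44.9 and 33.4% of all genes). Matching whole term names kept 22 members, of which 16 were tested and all 16 called. Of these 9 rose and 7 fell, where 47.8 and 50.6% of all tested genes did. By at least 2-fold it was 3 and 3, against 32.0 and 24.2% of all tested genes. Read depth is unknown, so no limit can be given for the low genes.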

Other observations

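Values follow for genes of neighbouring lipid signalling pathways that the annotation terms did not take in. Since 98.4% of all tested genes were called, a difference by itself sets none of them apart. The values are as deposited, without removal of the GC trend. PTGES, the inducible prostaglandin E synthase, fell from 146 ± 1.16 to 65.9 ± 2.42 TPM (SD, n = 3 each), and GPX1, a glutathione peroxidase, from 285 to 121 TPM, while CYP2S1, a cytochrome P450, rose from 4.82 to 10.7 TPM. Of 5 tested phosphoinositide genes 4 fell, where 50.6% of all tested genes did, among them PI4K2B, from 7.05 to 2.29 TPM, and MTMR12, from 16.9 to 6.88 TPM, and PIK3R2, a regulatory subunit of PI3K, rose from 32.9 ± 5.32 to 118 ± 18.6 TPM. CPT1C, a carnitine palmitoyltransferase known from neurons, went from 0.763 to 6.15 TPM. APOE, the apolipoprotein, rose from 3.72 to 12.9 TPM and DHRS3, a retinal reductase, from 2.34 to 8.54 TPM.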
